A study of Mus musculus with 9 samples.

Results

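Regulators of the switch between epithelial and mesenchymal cell states, 8 in all, were followed through 9 mouse RNA sequencing libraries. They are Snai1, Snai2, Zeb1, Zeb2, Twist1, Esrp1, Esrp2 and Grhl2, chosen by gene symbol. They make 8 genes on 9 of the 37975 rows of the gene table, since Zeb1 has 2 rows, and all 8 reached 1 FPKM in some library. FPKM is the number of sequenced fragments per kilobase of transcript, scaled to the mapped fragments of the library, so it allows levels of different genes to be set side by side. The libraries come from wild-type R1 embryonic stem cells (ESC), from wild-type extraembryonic endoderm (XEN) cells of the line IM8AR, and from an ESC line that overexpresses the endoderm factor Sox17 when doxycycline (dox) is given. That line was sampled without dox, after 7, 21, 35 and 49 h and 6 days with dox at 100 ng/ml, and as Sox17-XEN. The Sox17-XEN label gives 30 days with dox and 30 days without, in wording that does not settle the order, and its description calls the cells independent of dox. ESC were kept on a layer of mouse embryonic fibroblasts with the cytokine LIF, and XEN cells in medium that fibroblasts had conditioned, both with serum. The column of day 6 is marked SORT, which is not explained. Each group is 1 library, the libraries of the Sox17 line belong to 1 line, and no time-matched culture without dox was analysed here.

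In an epithelial-to-mesenchymal transition cells lose their junctions and apical-basal polarity and become motile. Snai1, Snai2, Zeb1 and Zeb2 are zinc-finger repressors that bind E-box sequences in the promoters of E-cadherin (Cdh1) and other junction genes, and Twist1 is a basic helix-loop-helix factor of the same programme. Grhl2 is an activator of junction genes and an opponent of Zeb1, and Esrp1 and Esrp2 are RNA-binding proteins that keep splicing in its epithelial form. In the embryo the primitive endoderm forms as an epithelium, and its parietal derivative, which XEN cells resemble, migrates as single cells.

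Of the 8 genes, Snai1, Esrp1 and Grhl2 showed the widest gaps between the means of the ESC-type and XEN-type lines in log2(FPKM + 1), and they differed in where along the course the gap appeared. Snai1 was at 4.40 and 8.52 FPKM in the ESC lines and at 69.2 and 157 FPKM in the XEN-type lines, with 45.5 FPKM at day 6. Grhl2 was at 14.2 and 19.5 FPKM in the ESC lines and was already at 0.536 FPKM at day 6. Esrp1 was still at 21.2 FPKM at day 6, close to the 21.7 and 23.4 FPKM of the ESC lines, and was at 1.08 and 0.133 FPKM in Sox17-XEN and wild-type XEN.

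**Figure D1:**
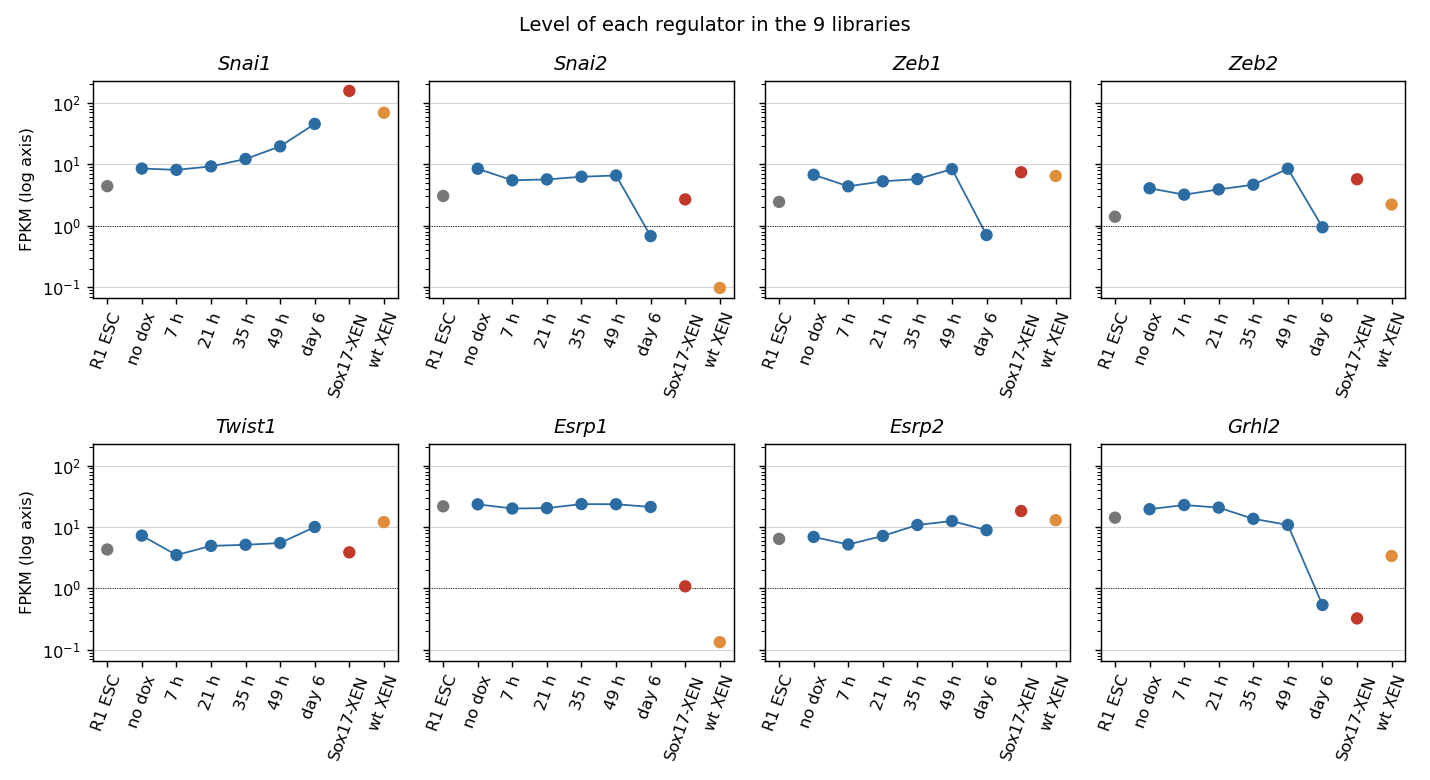
FPKM of the 8 regulators (log axis) in each of the 9 libraries, 1 point per library. Lines join the libraries of the dox course. Grhl2 is at 0.536 FPKM at day 6 while Esrp1 is at 21.2 FPKM, and Snai1 goes from 8.52 FPKM without dox to 45.5 FPKM at day 6.

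The libraries matched their labels. Sox17 was at 0.163 and 0.909 FPKM in the ESC lines and between 71.1 and 283 FPKM in the other 7 libraries. The 7 other primitive endoderm markers summed to 6.19 FPKM in R1 ESC, 15.7 without dox, 9.67 (7 h), 23.9 (21 h), 46.8 (35 h), 119 (49 h), 1768 on day 6, 1732 in Sox17-XEN and 1401 in wild-type XEN. The 7 or 8 ESC markers with an estimate summed to 2321 and 1854 FPKM in the ESC lines, 448 at day 6, and 11 and 12.5 FPKM in Sox17-XEN and wild-type XEN. Markers of the fibroblast feeder cells were present as well. The 22 fibroblast markers summed to 1102 FPKM in R1 ESC, 2565 without dox, 1201 (7 h), 1590.1 (21 h), 2055 (35 h), 3127 (49 h), 239 at day 6, 1050.2 in Sox17-XEN and 24.3 in wild-type XEN. Of these markers 5 of 22 reached 1 FPKM in wild-type XEN, with Col1a1 at 0.490 FPKM, against 19 to 22 of 22 in the other libraries. In bulk RNA, fewer cells of a type and less RNA per cell cannot be told apart. No read counts are given, so absolute depth is unknown. The commonest ratio between low FPKM values put the depth at 61.8% to 66.9% of that of R1 ESC at day 6 and in the XEN-type lines, and at 94.7% to 127% in the other libraries. This is a rough estimate, since only 6.07% to 11.3% of the low values lay at the ratio used.

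Differences between single libraries are given as log2(FPKM + 1), and a gene is called higher or lower past 2 log2 units, which is 4-fold in FPKM + 1. There is no test for such a pair. As a yardstick, the central 95% of 8426 genes between 1 and 25 FPKM in both ESC lines differed by -0.76 to 1.11 between the Sox17 line without dox and R1 ESC. That is a spread over genes and not the error of a gene. The authors' confidence intervals begin at 0 for 80 of the 81 values of the member rows, so no pair of neighbours in an order of levels can be separated by them. In that baseline comparison, 0 of 8 members were called, against 0.594% of all genes. The members nearest to the threshold were Snai2 at 1.22, Zeb1 at 1.17 and Zeb2 at 1.08, in the library with more of the fibroblast markers.

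Snai1 (ENSMUSG00000042821, mm9 chromosome 2, 167363695 to 167368314) encodes the zinc-finger repressor Snail. It was at 4.40 FPKM in R1 ESC, 8.52 without dox, 8.12 (7 h), 9.24 (21 h), 12.2 (35 h), 19.6 (49 h), 45.5 at day 6, 157 in Sox17-XEN and 69.2 in wild-type XEN. It was therefore highest in Sox17-XEN and lowest in R1 ESC, and every library from 21 h on lay above both ESC lines. The difference was 3.70 log2 units between wild-type XEN and R1 ESC and 4.05 between Sox17-XEN and the Sox17 line without dox. Within the course it was -0.06 (7 h), 0.10 (21 h), 0.47 (35 h), 1.11 (49 h) and 2.29 at day 6. Only at day 6 did it pass 2 log2 units. The feeder markers moved the other way at day 6, when they stood at 9.30% of the no-dox sum and Snai1 at 533% of its no-dox level. In wild-type XEN the same figures were 0.946% and 812%.

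The Snai1 promoter holds a sequence of the kind that Snail itself binds, so it is shown here, as the 250 bases before the start in the RefSeq table (build GRCm38.p6, chr2:167537945-167538194, plus strand). The capitals mark a match to the E-box CAGGTG or its reverse complement CACCTG, 126 bases before the start.
Snai1: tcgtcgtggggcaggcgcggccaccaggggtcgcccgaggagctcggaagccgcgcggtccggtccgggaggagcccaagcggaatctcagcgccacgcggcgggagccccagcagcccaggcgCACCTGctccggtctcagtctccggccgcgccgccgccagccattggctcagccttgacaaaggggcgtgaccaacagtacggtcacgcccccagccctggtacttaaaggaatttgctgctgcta
Both strands were searched, and these 2 words are the same site read on either strand. A match was present in 19.4% of the 27025 genes of that table. Of the members only Snai1, Twist1 and Zeb2 have an entry, and the letters were absent from the single Twist1 window and from all 4 Zeb2 windows. A match describes letters and does not show binding.

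Snai2 (ENSMUSG00000022676, mm9 chromosome 16, 14705945 to 14709488) encodes Slug, the closest paralog of Snail, and is abundant in fibroblasts. Its levels were 3.05 FPKM in R1 ESC, 8.46 without dox, 5.48 (7 h), 5.67 (21 h), 6.27 (35 h), 6.57 (49 h), 0.676 at day 6, 2.68 in Sox17-XEN and 0.0967 in wild-type XEN. It was lowest in wild-type XEN and next lowest at day 6, so it went opposite to Snai1 in those libraries. At day 6 it was lower by 2.50 log2 units than without dox, and wild-type XEN against R1 ESC gave -1.88. As a percentage of the no-dox library, Snai2 and the summed feeder markers stood side by side at 7.99% and 9.30% at day 6, 31.7% and 40.9% in Sox17-XEN and 1.14% and 0.946% in wild-type XEN. From 7 to 49 h they ran less closely, with the feeder sum between 46.8% and 122% and Snai2 between 64.8% and 77.7%. The part of the feeder cells in the Snai2 values was not tested. Snai1 made up 50.2% of the summed FPKM of the pair without dox, 74.9% at 49 h, 98.5% at day 6, 98.3% in Sox17-XEN and 99.9% in wild-type XEN.

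Zeb1 (ENSMUSG00000024238, chromosome 18) is the repressor most often set against Grhl2 and the Esrp genes. It was at 2.44 FPKM in R1 ESC, 6.75 without dox, 4.38 (7 h), 5.28 (21 h), 5.74 (35 h), 8.35 (49 h), 0.703 at day 6, 7.42 in Sox17-XEN and 6.45 in wild-type XEN. The library at day 6 stood apart, at -2.19 log2 units from the library without dox, and both XEN-type lines lay within the range of the other libraries. A second Zeb1 row (ENSMUSG00000093585) ran from 0.112 FPKM in R1 ESC to 2.44 FPKM in wild-type XEN, and how the 2 rows share fragments is not known.

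Zeb2 (ENSMUSG00000026872, mm9 chromosome 2, 44839154 to 44972915), its paralog, was at 1.40 FPKM in R1 ESC, 4.07 without dox, 3.20 (7 h), 3.90 (21 h), 4.65 (35 h), 8.47 (49 h), 0.941 at day 6, 5.70 in Sox17-XEN and 2.21 in wild-type XEN. Like Zeb1 it was highest at 49 h and lowest at day 6, where the difference from no dox, -1.39, did not reach the threshold. Those are also the libraries of the course in which the feeder markers were highest, at 122% of the no-dox sum, and lowest, at 9.30%. In wild-type XEN, another cell line, the feeder markers stood at 0.946% of the no-dox sum. Zeb1 stood there at 95.6% and Zeb2 at 54.3% of their no-dox levels. The part of the feeder cells in the Zeb1 and Zeb2 values was not tested. Zeb1 took 62.3% of the pair's FPKM without dox, 42.8% at day 6, 56.5% in Sox17-XEN and 74.4% in wild-type XEN.

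Twist1 (ENSMUSG00000035799, mm9 chromosome 12, 34642536 to 34644682) varied least among the 5 factors of the mesenchymal side, with its highest level 3.43 times its lowest. It was at 4.30 FPKM in R1 ESC, 7.24 without dox, 3.49 (7 h), 4.92 (21 h), 5.13 (35 h), 5.48 (49 h), 10 at day 6, 3.86 in Sox17-XEN and 12.0 in wild-type XEN. The XEN-type lines thus held its highest and its second lowest level. The differences were 1.29 log2 units for wild-type XEN against R1 ESC and -0.76 for Sox17-XEN against no dox. At day 6, with the feeder markers at 9.30%, Twist1 was at 138% of its no-dox level.

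**Figure D2:**
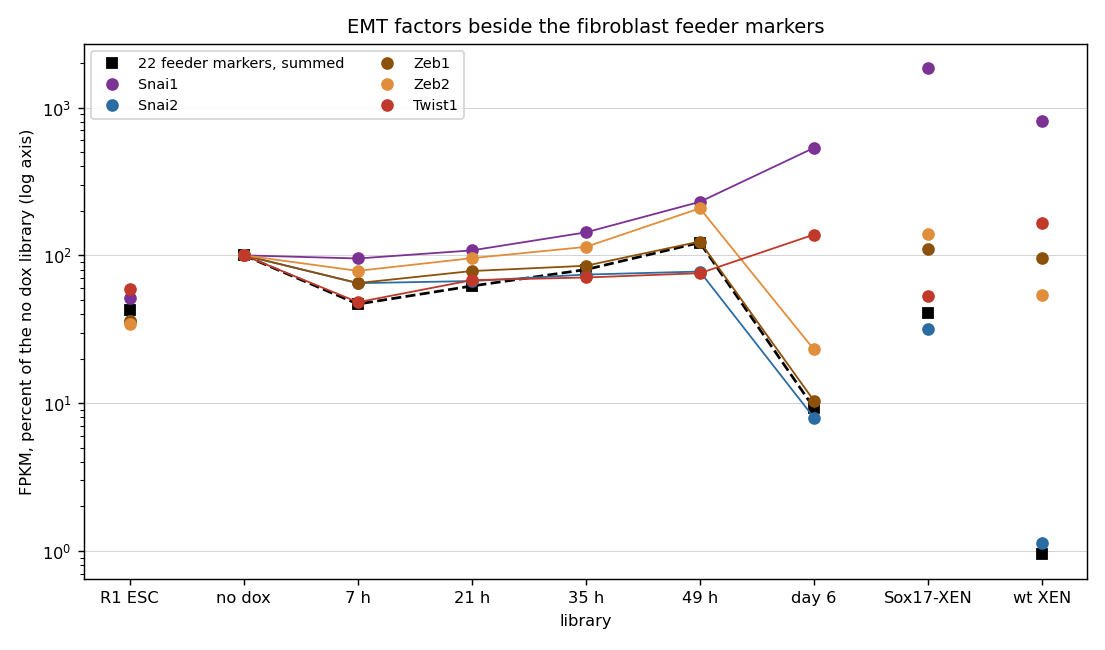
Summed FPKM of 22 fibroblast feeder markers (black squares) and FPKM of Snai1, Snai2, Zeb1, Zeb2 and Twist1 (circles), each as a percentage of the Sox17 line without dox on a log axis, in 9 libraries. Lines join the dox course. At day 6 Snai2, at 7.99%, and Zeb1, at 10.4%, sit beside the feeder markers at 9.30%, and in wild-type XEN Zeb1 sits at 95.6% with the feeder markers at 0.946%.

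Grhl2 (ENSMUSG00000022286, mm9 chromosome 15, 37161676 to 37293324) encodes the epithelial activator Grainyhead-like 2. It was at 14.2 FPKM in R1 ESC, 19.5 without dox, 22.8 (7 h), 20.7 (21 h), 13.6 (35 h), 10.8 (49 h), 0.536 at day 6, 0.324 in Sox17-XEN and 3.37 in wild-type XEN. From 7 h onward each later library of the course was lower than the one before, and the 3 libraries at day 6 and in the XEN-type lines lay below all others. Against no dox the differences were 0.22 (7 h), 0.08 (21 h), -0.49 (35 h), -0.80 (49 h), -3.74 at day 6 and -3.95 in Sox17-XEN. Wild-type XEN against R1 ESC gave -1.80, short of the threshold. Its 2 paralogs were low in the same libraries. Grhl1 was at 3.03 FPKM without dox, 0.379 at day 6, 0.0472 in Sox17-XEN and 0.0494 in wild-type XEN, and Grhl3 was at 7.36, 0.761, 0.00662 and 0.00622 FPKM.

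Esrp1 (ENSMUSG00000040728, mm9 chromosome 4, 11188462 to 11313930) encodes an epithelial splicing regulator. It was at 21.7 FPKM in R1 ESC, 23.4 without dox, 20.0 (7 h), 20.3 (21 h), 23.6 (35 h), 23.5 (49 h), 21.2 at day 6, 1.08 in Sox17-XEN and 0.133 in wild-type XEN. The other 7 libraries lay between 20.0 and 23.6 FPKM, and the 2 XEN-type lines lay far below them. The difference was -4.32 log2 units for wild-type XEN against R1 ESC and -3.55 for Sox17-XEN against no dox, whereas day 6 against no dox gave -0.13.

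Esrp2 (ENSMUSG00000084128, mm9 chromosome 8, 108582740 to 108662425), its paralog with overlapping targets, went the other way. It was at 6.40 FPKM in R1 ESC, 6.89 without dox, 5.19 (7 h), 7.15 (21 h), 10.8 (35 h), 12.5 (49 h), 8.88 at day 6, 18.2 in Sox17-XEN and 12.9 in wild-type XEN. Both XEN-type lines lay above all other libraries, at differences of 0.91 (wild-type XEN against R1 ESC) and 1.28 (Sox17-XEN against no dox) that did not reach the threshold. Wild-type XEN was only just above the library at 49 h. Esrp1 made up 77.2% of the summed FPKM of the pair in both ESC lines, 65.3% at 49 h, 70.5% at day 6, 5.63% in Sox17-XEN and 1.02% in wild-type XEN. The sum itself went from 28.1 FPKM in R1 ESC to 13.0 in wild-type XEN, and from 30.2 without dox to 19.3 in Sox17-XEN. On the table the loci of Esrp1 and Esrp2 are merged with those of neighbouring genes, Dpy19l4 and Nfatc3 among them. Of the 8 members 5 share a locus with another row, as do 38.9% of all rows, so their FPKM is less certain.

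**Figure D3:**
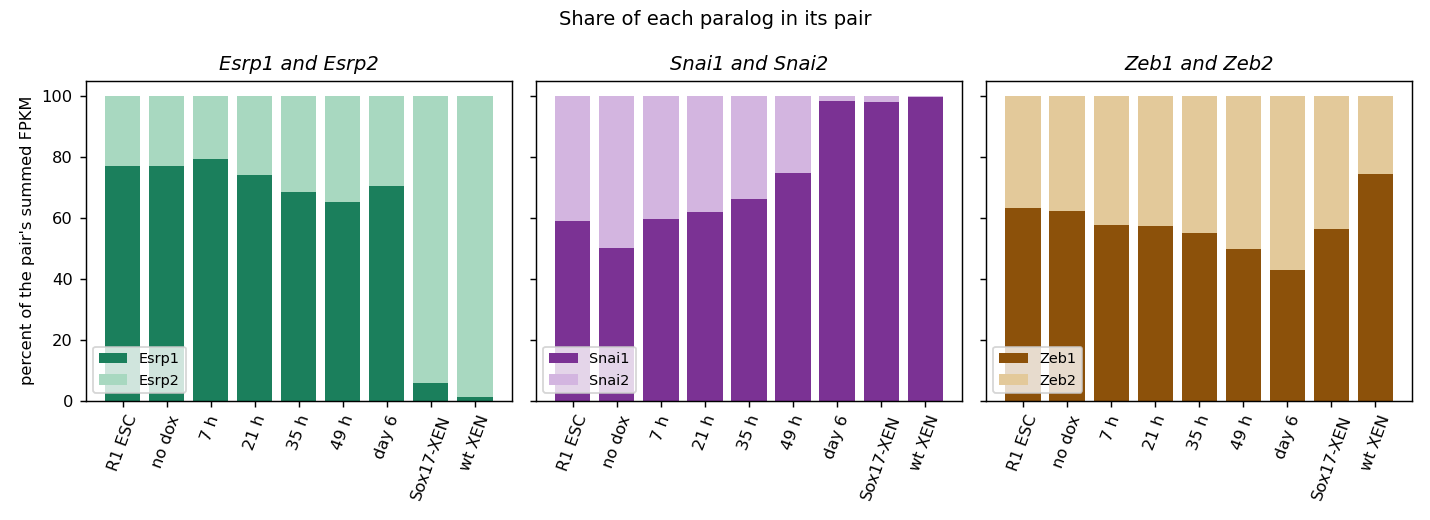
Share of each paralog in the summed FPKM of its pair, in percent, for Esrp1 and Esrp2, Snai1 and Snai2, and Zeb1 and Zeb2 in 9 libraries. Esrp1 holds 77.2% in both ESC lines and 5.63% and 1.02% in the XEN-type lines, and Snai1 holds 98.3% to 99.9% at day 6 and in the XEN-type lines.

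Counted over the 8 members, 2 were past 2 log2 units between wild-type XEN and R1 ESC (Snai1 higher, Esrp1 lower), against 14.8% of all genes (8.24% higher and 6.54% lower). Between Sox17-XEN and the line without dox there were 3 (Snai1 higher, Esrp1 and Grhl2 lower), against 10.8% (5.75% higher and 5.0% lower). Between Sox17-XEN and wild-type XEN there were 0, against 4.32%, and the largest differences were 1.75 for Snai2 and -1.72 for Grhl2. The median of the 8 differences was 0.66 for wild-type XEN against R1 ESC, where the median of all genes was 0.21, and -0.32 for Sox17-XEN against no dox, where it was 0.17. With each library rescaled so that the median gene does not move, Snai2 and Grhl2 also passed the threshold in wild-type XEN, at -2.10 and -2.01. That rescaling took the share of higher genes among all called from 55.7% to 45.6%, and in Sox17-XEN from 53.5% to 44.8%.

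A test over lines was possible when both XEN-type lines were set against both ESC-type lines (limma with 1 value per library, over 14925 genes, two-sided, Benjamini-Hochberg adjusted). Snai1 was higher by 3.88 log2 units (SE 0.54, limma adjusted p = 0.0228) and Esrp1 lower, at -3.93 (SE 0.43, limma adjusted p = 0.0178). These were the 2 of 8 members past an adjusted p of 0.05 and 2 log2 units, against 8.74% of all genes (4.85% higher and 3.89% lower). Grhl2, at -2.88 (SE 0.69, limma adjusted p = 0.0568), missed the p threshold, and Esrp2, at 1.09 (SE 0.30), had an adjusted p of 0.0723 by limma. The estimates of Snai2 (-1.62, SE 0.80), Zeb1 (0.62, SE 0.51), Zeb2 (0.41, SE 0.60) and Twist1 (0.26, SE 0.62) had limma adjusted p of 0.206 to 0.771. Both calls rest on having 2 ESC-type lines: without R1 ESC the limma adjusted p was 0.165 for Snai1 and 0.129 for Esrp1, and without the Sox17 line 0.125 and 0.12, with 0 genes of the table called in either fit. The fit takes the 4 libraries as independent, although Sox17-XEN and the library without dox come from the same line. With that origin as a block, a fit chosen after seeing the data, the limma adjusted p was 0.0413 for both Snai1 and Esrp1. Without wild-type XEN, Grhl2 was called, at -3.74 (limma adjusted p = 0.0425).

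**Figure D4:**
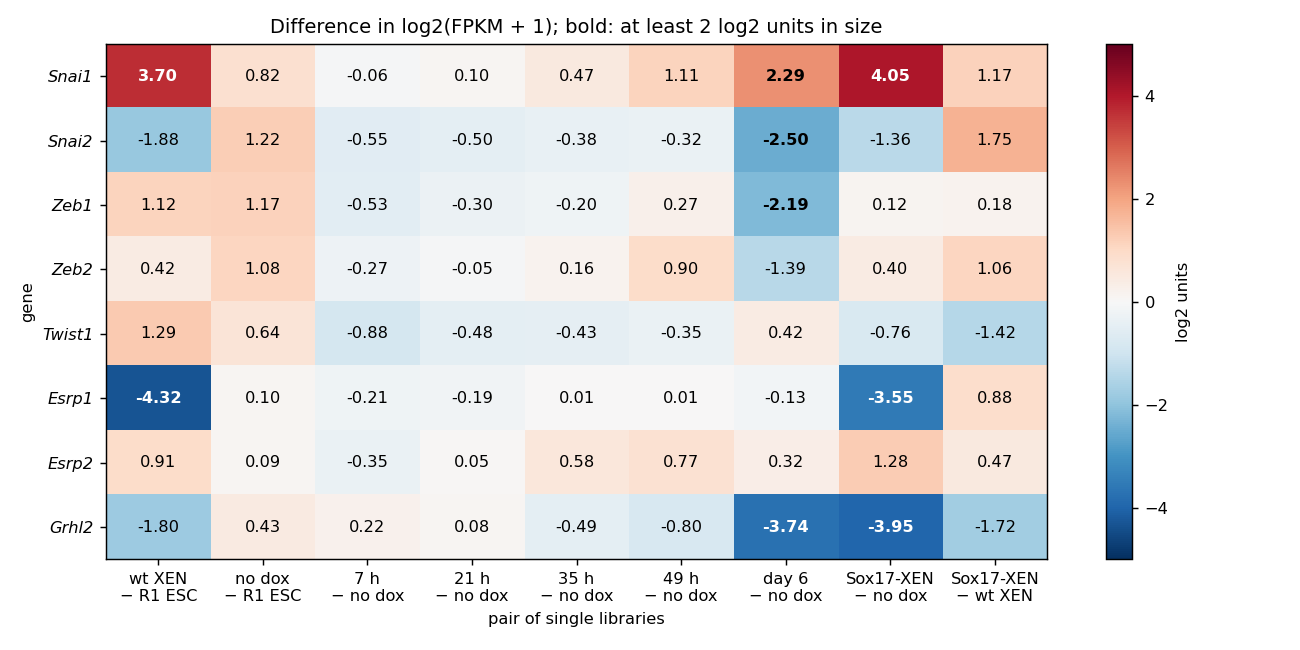
Differences in log2(FPKM + 1) of the 8 regulators for 9 pairs of libraries, 1 library each, with the value in every cell. Snai1 is at 2.29 at day 6 and 4.05 in Sox17-XEN, Grhl2 at -3.74 and -3.95, and Esrp1 at -0.13 and -3.55, each against the Sox17 line without dox.

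The dox libraries all use the library without dox as their control, so their differences share it. At 7 h 0 of 8 members were past 2 log2 units (0.786% of all genes), at 21 h 0 of 8 (1.19%), at 35 h 0 of 8 (1.07%) and at 49 h 0 of 8 (1.17%). The widest early values were Snai1 at 1.11 and Zeb2 at 0.90, both at 49 h. At day 6 there were 4 of 8, Snai1 higher and Snai2, Zeb1 and Grhl2 lower, against 9.0% of all genes (5.14% higher and 3.86% lower). The median of the members was -0.76 at day 6, where all genes had 0.10. Day 6 is also the only column of the course marked SORT, and its feeder markers were at 9.30% of the no-dox sum. The parts of time with dox, sorting and feeder cells in the day 6 differences cannot be told apart. Fits over the whole course include that library. A fit of each gene on the order of the 6 libraries from no dox to day 6 (limma, 14933 genes) called 0 of 8 members and 0% of all genes at an adjusted p of 0.05. At an unadjusted p under 0.05, 2 of 8 members passed, Snai1 at 0.44 log2 units per step (SE 0.09, limma adjusted p = 0.122) and Grhl2 at -0.64 (SE 0.20, limma adjusted p = 0.161). Of all 14933 genes, 2442 passed upward and 1305 downward, so such a pass was common and does not set the 2 members apart. Esrp1 had the flattest slope, 0.01 per step (SE 0.04). With time in hours in place of ranks, where day 6 lies far from the other points, limma called Snai1, Snai2, Zeb1 and Grhl2 and 6340 genes in all.

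The epithelial genes were followed next, since they are what these factors are known to switch. Cdh1, the main E-cadherin gene and classical target of Snail and Zeb proteins, was at 71.2 FPKM in R1 ESC, 96.8 without dox, 52.7 (7 h), 119 (21 h), 152 (35 h), 124 (49 h), 105 at day 6, 2.83 in Sox17-XEN and 1.63 in wild-type XEN. Cdh1 thus shared with Esrp1 a level at day 6 within the range of the earlier libraries and a low level in both XEN-type lines alone. At day 6 that level stood beside 45.5 FPKM of Snai1 and 0.536 FPKM of Grhl2.

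Of the 31 epithelial genes, 9 were higher and 12 lower in wild-type XEN than in R1 ESC (median -0.41), and 4 were higher and 11 lower in Sox17-XEN than without dox (median -0.90). Of all genes, 8.24% were higher and 6.54% lower in wild-type XEN, and 5.75% and 5.0% in Sox17-XEN. The largest differences in Sox17-XEN were in the tight junction gene Cldn4 (-5.08), Cdh1 (-4.68) and the keratins Krt8 (4.23) and Krt18 (3.87). At day 6 the same list counted 13 higher and 2 lower (median 1.41), against 5.14% and 3.86% of all genes. The 2 lower genes were Cldn4 at -4.02 and the trafficking gene Rab25 at -2.37, and the higher ones were led by Cldn6 at 3.83, Ocln at 3.52 and Krt18 at 3.22. From 21 to 49 h the only epithelial gene past the threshold was the transcription factor Elf3, at 2.36, 2.32 and 2.11. Of all genes, 1.07% to 1.19% were past it in those libraries. Ap1m2, an epithelial sorting adaptor named after its values were seen, was at 12.1 FPKM without dox, 67.8 at day 6, 0.379 in Sox17-XEN and 0.0420 in wild-type XEN. The day 6 library thus had higher FPKM for many junction genes than the library without dox, with Grhl2 at 0.536 FPKM and the feeder markers at 9.30% of the no-dox sum. The part of the feeder cells in these counts was not tested.

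**Figure D5:**
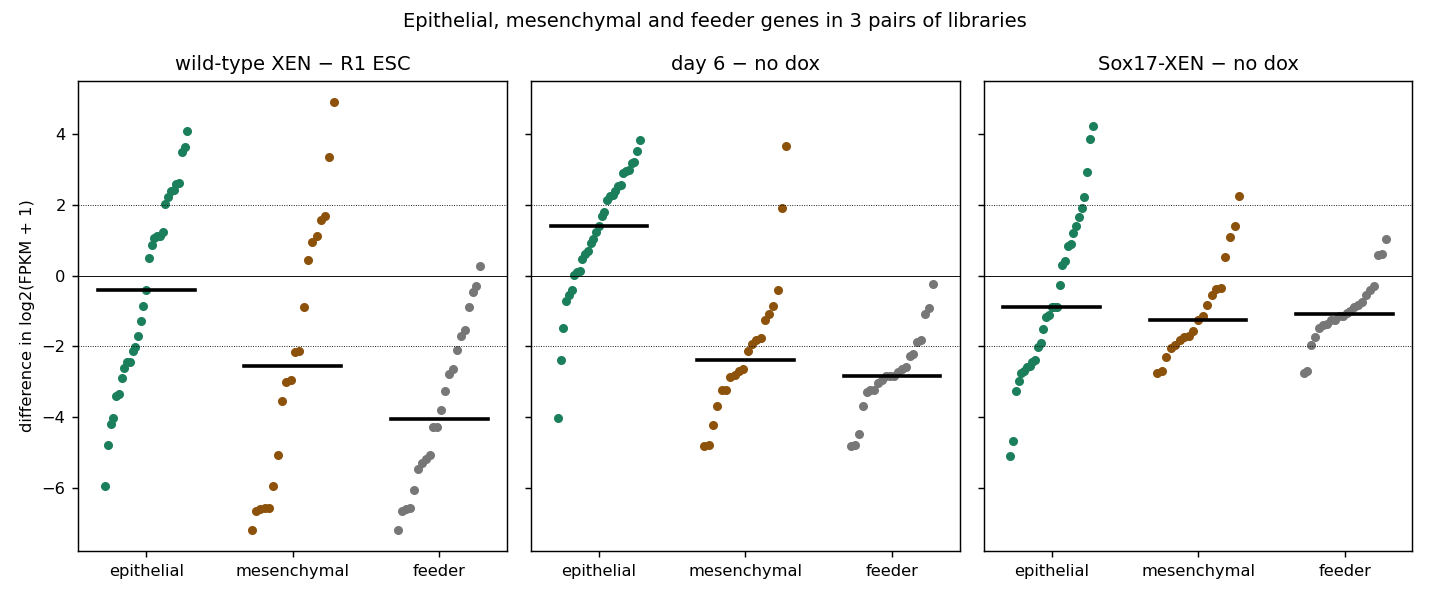
Difference in log2(FPKM + 1) of epithelial, mesenchymal and fibroblast feeder genes in 3 pairs of libraries. Each point is a gene, and bars mark the medians. The epithelial list has a median of 1.41 at day 6 and -0.90 in Sox17-XEN, and the mesenchymal list has -2.38 and -1.24, each against the Sox17 line without dox.

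Against the ESC lines, the mesenchymal list had a negative median at day 6 and in both XEN-type lines, where Snai1 was highest. Of 20, 2 were higher (the matrix protein Sparc and the secreted factor Ctgf) and 12 lower in wild-type XEN than in R1 ESC (median -2.55). Of all genes, 8.24% were higher and 6.54% lower there. The lower genes were led by S100a4 at -7.17 and Col1a1 at -6.65, which are both also fibroblast markers. At day 6 the list counted 1 higher and 11 lower (median -2.38), against 5.14% and 3.86% of all genes. In Sox17-XEN, 1 of 19 was higher and 4 were lower than without dox (median -1.24), against 5.75% and 5.0% of all genes. Against wild-type XEN, 10 of 19 were higher in Sox17-XEN, where 4.32% of all genes differed in either direction. Of the 20 genes, 6 are also on the fibroblast list, which had a median of -4.03 in wild-type XEN and -2.83 at day 6 and was higher for 18 of 22 genes in Sox17-XEN than in wild-type XEN. Their part in the mesenchymal counts was not tested either. Vim, the intermediate filament of mesenchymal cells and the second nearest to Zeb1 in pattern, was at 305 FPKM in R1 ESC, 745 without dox, 114 at day 6, 567 in Sox17-XEN and 665 in wild-type XEN.

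Other factors of the same families were measured for 10 or 11 of 13 genes. In wild-type XEN 4 of 11 were lower than in R1 ESC and 0 higher: Prrx1 at -3.27, Grhl3 at -2.47, Twist2 at -2.10 and Snai3 at -2.02. Prrx1 and Twist2 also count as feeder markers. At day 6 the zinc-finger factor Klf8 was higher by 2.37 and Grhl3 and Prrx1 were lower, at -2.25 and -2.21. In Sox17-XEN 1 of 10 passed the threshold, Grhl3 at -3.05, and after rescaling to the median gene Grhl1 and Snai3 passed it too. Before rescaling, 14.8% of all genes passed it in wild-type XEN (6.54% lower), 9.0% at day 6 and 10.8% in Sox17-XEN.

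Genes spliced by the Esrp proteins were counted by level in the same way. In wild-type XEN 0 of 8 were past 2 log2 units, against 14.8% of all genes. At day 6 there was 1, the hyaluronan receptor Cd44 at -2.59, against 9.0%. In Sox17-XEN there were 2, the growth factor receptor Fgfr2 at -2.36 and Cd44 at -2.16, against 10.8%. Fgfr2 was at 10.7 FPKM without dox, 26.4 (49 h), 37.8 at day 6, 1.27 in Sox17-XEN and 2.35 in wild-type XEN, so it was low where Esrp1 was low. Gene-level FPKM cannot separate the exon choices that these proteins make. Among 8 other splicing regulators, 1 was past the threshold in wild-type XEN, Mbnl2 at 2.94, and 1 at day 6, Rbm47 at 2.11. In Sox17-XEN there were 0. The shares of all genes were again 14.8%, 9.0% and 10.8%.

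Snail protein is controlled by its partners and by kinases that mark it for decay, and 14 such genes were measured. In wild-type XEN 3 were higher, the corepressor Rcor1 at 3.54 and the kinases Gsk3b at 2.38 and Lats2 at 2.01, and the kinase Pak1 was lower at -3.90. Of all genes, 8.24% were higher and 6.54% lower there. In Sox17-XEN 1 of 14 was higher, Rcor1 at 2.61, and 1 lower, Pak1 at -3.19, against 5.75% and 5.0% of all genes. At day 6 0 were higher and 1 lower, the corepressor Ctbp2 at -2.34, against 5.14% and 3.86%. Of 12 genes for TGF-beta ligands, receptors, Smads and related genes, a pathway that induces Snai1 in many cells, 4 were higher and 2 lower in wild-type XEN, or 2 and 2 after rescaling. The co-receptor Tgfbr3 was higher there (3.29), at day 6 (2.82) and in Sox17-XEN (4.23). The same shares of all genes, before rescaling, stand beside this list.

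Promoters of the epithelial genes were searched for the same E-box, since these are the sites that Snail and Zeb proteins are known to bind. Of the 31 genes, 22 have an entry in the RefSeq table. Cdh1 has none, so its promoter was not searched. Of the 22, 16 (72.7%) hold at least 1 match in the 250 bases before a start. The share was 19.4% of all 27025 genes, and 0 of 11 mesenchymal genes held a match. The epithelial genes were chosen as ones that these factors are known to switch. Their share therefore describes the list and is no independent result. A match was present in 6 of the 8 genes that were lower in both XEN comparisons and in 4 of the 4 that were higher in both. At least 2 matches in a window were found in 4 of the 8 lower and 1 of the 4 higher genes. The promoters with most matches are printed for each class, chosen after their values were seen, with Krt18 tied with Krt8 and Patj. Ap1m2 and the polarity gene Crb3 were lower (-3.25 and -2.75 in Sox17-XEN), and the polarity gene Pard6b and the keratin gene Krt18 were higher (2.93 and 3.87). The positions are Ap1m2 chr9:21312334-21312583 (minus strand), Crb3 chr17:57061951-57062200 (plus), Pard6b chr2:168080754-168081003 (plus) and Krt18 chr15:102027966-102028215 (plus), all in GRCm38.p6, with matches in capitals.
Ap1m2: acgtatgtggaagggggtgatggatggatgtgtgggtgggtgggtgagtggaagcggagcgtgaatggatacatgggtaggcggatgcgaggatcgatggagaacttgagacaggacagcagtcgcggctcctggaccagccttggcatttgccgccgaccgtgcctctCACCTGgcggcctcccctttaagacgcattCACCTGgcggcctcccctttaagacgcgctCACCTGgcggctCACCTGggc
Crb3: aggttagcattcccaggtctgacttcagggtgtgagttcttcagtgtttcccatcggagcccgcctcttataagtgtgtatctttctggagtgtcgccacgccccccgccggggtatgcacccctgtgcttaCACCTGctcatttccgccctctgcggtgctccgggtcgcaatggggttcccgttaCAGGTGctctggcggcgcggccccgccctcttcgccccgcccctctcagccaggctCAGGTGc
Pard6b: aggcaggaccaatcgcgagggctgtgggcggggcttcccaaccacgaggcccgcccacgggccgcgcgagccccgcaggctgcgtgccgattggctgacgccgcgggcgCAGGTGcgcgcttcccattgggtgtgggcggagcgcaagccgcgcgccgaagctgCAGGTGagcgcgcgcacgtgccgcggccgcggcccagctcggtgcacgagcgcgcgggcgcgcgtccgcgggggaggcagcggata
Krt18: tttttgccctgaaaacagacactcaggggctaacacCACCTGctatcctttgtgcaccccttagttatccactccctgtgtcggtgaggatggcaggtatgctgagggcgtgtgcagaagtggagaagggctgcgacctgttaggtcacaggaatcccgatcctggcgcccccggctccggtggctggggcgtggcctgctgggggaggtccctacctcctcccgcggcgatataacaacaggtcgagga
Ap1m2 holds 4 matches within 81 bases of its start, Crb3 has 3, Pard6b has 2 and Krt18 has 1, which lies 214 bases before the start. The E-box letters were therefore present both in promoters of genes that were low and in promoters of genes that were high where Snai1 was at 69.2 and 157 FPKM.

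Finally, the genes whose pattern over the 9 libraries lay nearest to each member were found among 9710 genes, by the root mean square difference of centred log2(FPKM + 1) values. Snai1 was nearest to the death receptor gene Tnfrsf21 (0.28 log2 units), Tspan2 (0.31) and the collagen-modifying enzyme gene Plod1 (0.32). Snai2 was nearest to Mtap1a (0.21) and to the matrix and secreted protein genes Ecm1 and Angptl2 (both 0.24). The nearest to Zeb1 were Sh3bgrl (0.24), Vim (0.25) and Baiap2 (0.29), and to Zeb2 Golim4 (0.13), Rusc2 and Cnn2 (both 0.24). For Twist1 they were Cnnm2 (0.18), Lpin2 (0.20) and Vac14 (0.21). Esrp1 had Pfkp, a glycolytic enzyme gene (0.26), Tcl1 (0.32) and Mgmt (0.37). Esrp2 had Rbm18, Paip1 and Camk1 (all 0.17), and Grhl2 had Elavl2 and N4bp3 (both 0.29). These likenesses are descriptions over 9 libraries, many of them from the dox course, and the level of the feeder markers varied between them.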

How the data were processed

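The authors sequenced total RNA, extracted with Trizol and made into libraries with the TruSeq RNA kit, per the labels' protocols. The upstream software included TopHat2 2.0.11, Cufflinks 2.1.2 and Cuffdiff, with mm9 as the build, per the submitters' processing notes. For each gene the authors deposited FPKM with confidence bounds and a status, and no read counts, so absolute depth is unknown. Each of the 9 groups has 1 library. All member values had the status OK. Values of other genes with another status were treated as missing.

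From these values log2(FPKM + 1) was computed. Rows reaching 1 FPKM in a library were kept (15082). Single libraries were compared by a difference of at least 2 log2 units. Lines and the dox course were tested with limma 3.58.1 in R 4.3.3 (empirical Bayes with a mean trend). The code was also run on simulated libraries with independent noise. Those lacked a shared origin of lines and feeder cells, so they do not bear on the p-values given here. No line is replicated, so limma p-values rest on the spread between different lines or times. Zeb1 was taken from the row whose identifier is in GENCODE M21. Promoters come from the RefSeq table for GRCm38.p6, and mm9 coordinates from the deposited table. Outside the members, each list is given by its counts and by up to 4 genes with the largest differences in a comparison, apart from genes named as chosen later or as the whole of a small count. The 3 nearest genes per member had at least 5 FPKM at their maximum. Some genes that these rules name are not reported here. The members and lists were chosen with earlier results of these data known.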

Additional observations from a re-analysis of the deposited data

Results flagged for a closer look

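Twist1 differed in opposite directions in both comparisons of an XEN-type with an ESC-type line. It was 1.29 log2 units higher in wild-type XEN than in R1 ESC (12.0 against 4.30 FPKM), and Sox17-XEN against the Sox17 line without dox gave -0.76 (3.86 against 7.24 FPKM). Each side of each pair is 1 library, and the difference between the pairs was not tested. The summed fibroblast markers were lower in the XEN-type line of both pairs, at 24.3 against 1102 FPKM and at 1050.2 against 2565 FPKM.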

How the results depend on the processing

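No called value of a member changed sign under the alternatives run, while the small limma estimates of Zeb2 and Twist1 between lines did, to -0.03 and -0.18 after rescaling. The count of members past the threshold between wild-type XEN and R1 ESC went from 2 to 4 with a pseudocount of 0.1, 6 with a difference of 1 log2 unit, 4 after rescaling to the median gene and 0 when the authors' intervals also had to be apart. For Sox17-XEN against no dox the 3 became 5 at 1 log2 unit and 0 with the intervals, for day 6 the 4 became 0 with the intervals, for 49 h the 0 became 1 at 1 log2 unit, and for no dox against R1 ESC the 0 became 3. For Sox17-XEN against wild-type XEN the 0 became 3 with a pseudocount of 0.1 and 5 at 1 log2 unit. Counts over all genes moved likewise: between wild-type XEN and R1 ESC the 2214 genes became 4184 with a pseudocount of 0.1, 6238 at 1 log2 unit and 6 with the intervals, at day 6 the 1349 became 2669, 4549 and 9, and in Sox17-XEN against no dox the 1611 became 3143, 5272 and 9. Against wild-type XEN the 647 became 1573, 2373 and 2. The 89 between the ESC lines became 223, 804 and 0, and the early time points became 230, 455 and 0 (7 h, from 118), 426, 762 and 0 (21 h, from 179), 390, 693 and 0 (35 h, from 161) and 456, 832 and 0 (49 h, from 176). In the limma test of lines, the 1305 genes called became 2177 with a pseudocount of 0.1 and 285 with no filter on low values, where the 2 members called became 0. Leaving out 1 line gave 0 to 3 members and 0 to 1473 genes. Grhl2 was called after rescaling, at -3.32 (limma adjusted p = 0.0226). In the limma trend, time in hours gave 4 members and 6340 genes, Sox17-XEN as a further step gave 2 (Snai1 and Grhl2) and 2009 genes, and leaving out any 1 library gave 0 and 0. The causes were not tested. Summing both Zeb1 rows, chosen after seeing the data, left every count of members as it was. The authors' wide intervals limit any single value. With the origin of the lines (wild-type or Sox17 line) as a block, chosen after seeing the data, limma called 2 members and 1214 genes, with 1 residual degree of freedom. By replicate number, no paired analysis was possible because each group has 1 library.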
